A study of Mus musculus with 24 samples.

Results

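Bmal1 (Arntl, ENSMUSG00000055116), Clock (ENSMUSG00000029238) and Npas2 (ENSMUSG00000026077) are the 3 genes of the activating limb of the circadian clock. They were taken by gene symbol, a rule that uses no measured values, although earlier results of these data were known when they were chosen. They are 3 of the 56941 genes in the deposited tables of mouse liver RNA. All 3 were among the 20514 genes that passed the filter on low counts. Polyadenylated RNA was sequenced in 24 libraries, 3 in each of 8 groups. WT livers were Bmal1+/+ and KO livers Bmal1-/-, both offspring of Bmal1+/- parents on C57BL/6J, and the KO lacks the gene in the whole body. F livers were Bmal1f/f without Cre, and LKO livers carried the same floxed alleles with Alb-Cre, a recombinase driven by the albumin promoter and therefore active in hepatocytes. Liver cells in which it is not active keep the gene. Each genotype was collected at 2 circadian times, CT2 in the early part of subjective day and CT14 soon after the start of subjective night. Neither ages nor the number of animals behind the 3 replicates of a group are stated. The p-values therefore measure the spread between these samples, which may be technical.

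BMAL1 is a bHLH-PAS transcription factor that binds E-box DNA only as a dimer with CLOCK or with its paralogue NPAS2. The dimer drives Per and Cry genes, whose proteins shut it off again, and Nr1d1 and Nr1d2, which encode the repressors REV-ERB alpha and REV-ERB beta. The REV-ERBs and the activating ROR receptors compete for RORE sites, and Bmal1, Clock and Npas2 are known as RORE-controlled genes, so that in liver they peak out of phase with the E-box genes. Deleting Bmal1 removes the common partner of both CLOCK and NPAS2.

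A pair of RORE cores lies at the start of Bmal1, and they are shown because the receptors measured further on are known to bind such sites. The sequences are RefSeq's on GRCm38.p6, 5′ to 3′ on the gene's strand, with each motif in capitals. The TAGGTTA core at chr7:113207494-113207523 (+) begins at base -6, where base 1 is the annotated start, and the TAGGTCA core at chr7:113207530-113207559 (+) begins at base 31. Clock is on the minus strand, and chr5:76303604-76303633 holds an AGGTCA half-site read on the opposite strand. For Npas2, the gene with the largest changes, the 250 bases upstream of its annotated start are printed, chr1:39194022-39194271 (+). None of the motifs searched was found in them. Sequence outside the windows described below was not searched, so sites elsewhere in or near these genes would not be seen.
Bmal1 TAGGTTA: tggtcggaaagTAGGTTAgtggtgcgacat
Bmal1 TAGGTCA: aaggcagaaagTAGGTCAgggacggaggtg
Clock half-site: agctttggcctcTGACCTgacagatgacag
Npas2 upstream: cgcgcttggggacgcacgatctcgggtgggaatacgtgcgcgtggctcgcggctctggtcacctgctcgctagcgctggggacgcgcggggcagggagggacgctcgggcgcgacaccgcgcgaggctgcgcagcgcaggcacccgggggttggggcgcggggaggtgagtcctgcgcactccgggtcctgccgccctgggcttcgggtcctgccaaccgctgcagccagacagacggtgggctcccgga

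Both strands of the 300-base windows, 250 bases before to 50 after each start, were searched for the E-boxes CACGTG and CACGTT, the RORE core TAGGTCA, its half-site AGGTCA, which lies inside it, and the D-box TTANGTAA. The TAGGTTA variant was added after the Bmal1 sequence had been seen. RefSeq lists 2 windows for Bmal1, 3 for Clock and 1 for Npas2. TAGGTCA occurred in 2.61% of all 32851 windows, TAGGTTA in 1.44%, AGGTCA in 16.3%, CACGTG in 7.15%, CACGTT in 4.68% and TTANGTAA in 2.32%. The matches shown were the only ones in the windows of these 3 genes, with the TAGGTTA core counted in both overlapping Bmal1 windows. The stretch upstream of Npas2 had 74.8% G and C.

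Total estimated counts ran from 88995259 to 131544733 per library. Hepatocyte markers (Alb, Apoa1, Apob, Ttr, Fgb, Cps1, Hnf4a, Tat) were abundant in all libraries. Their summed level, in CPM (counts scaled by library total and TMM factor), was 53991 to 89937 in KO against 87872 to 117320 in WT, and 60220 to 81096 in LKO against 91036 to 134760 in F.  Over both times, the sums overlapped between knockouts and controls for Kupffer cell (339 to 1044 CPM), endothelial (219 to 329) and stellate cell markers (158 to 320). Sums ran from 23.7 to 266 CPM for cholangiocytes, 2.41 to 7.97 for lymphocytes, 0.899 to 42.8 for neutrophils, 245 to 759 for erythroid cells, 0 to 0.516 for adipocytes, with Lep at 0 throughout, and 0 to 19.9 for spermatids. The spermatid sums split by line, with 4.22 to 19.9 CPM in F and LKO libraries and 0 to 0.407 in WT. In KO they were at most 0.0449, apart from 4.24 in KO CT2 replicate 2 and 4.83 in KO CT14 replicate 1. The part of cell makeup in the results below was not tested. In whole liver, fewer cells of a type and less RNA per cell cannot be told apart. In 3 libraries the Y-linked gene Ddx3y was low, at 3.86 CPM in F CT2 replicate 3, at 8.15 in replicate 3 of LKO CT2 and at 9.61 in replicate 1 of KO CT2, against 25.7 to 48.5 CPM elsewhere. The first 2 of these also had the smallest shares of mitochondrially encoded counts, 1.37% and 1.82% against 2.11% to 4.92% in the others. F CT2 replicate 3 further held 1539 CPM of pancreatic acinar markers, where the other F CT2 libraries had 40.5 and 74.2 and no other library had more than 426.

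The targeted gene was read first. Bmal1 in WT at CT2 stood at 16.6, 18.8 and 19.3 TPM, a level corrected for transcript length. In KO at CT2 it stood at 4.29, 4.69 and 5.08 TPM. The groups did not overlap, and Bmal1 was lower in KO by a log2 fold change of -2.11 ± 0.36 (SE), or 4.31-fold (adjusted p = 0.00576, edgeR quasi-likelihood test with Benjamini-Hochberg adjustment over all genes tested, as throughout). In this comparison 0.517% of the genes tested passed. The share of all genes whose libraries did not overlap was not counted, here or below, so non-overlap is given as description only. Transcript reads remained in every KO library. The labels do not name the deleted exons and the tables give whole-gene values, so they cannot show whether the deleted part was absent. Leaving out the 3 libraries with low Ddx3y together kept the size (-2.11) but not the call (adjusted p = 0.0684).

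The liver-specific knockout was at a similar level. F at CT2 had 16.6, 15.6 and 15.2 TPM of Bmal1, and LKO at CT2 had 4.90, 5.59 and 3.73. All LKO libraries were below all F libraries, with a log2 fold change of -1.95 ± 0.36, 3.87-fold (adjusted p = 0.0112, against 0.400% of genes called). The 3 LKO values spanned the KO range on both sides. The call was lost without F CT2 replicate 3 and LKO CT2 replicate 3 (log2 -1.91, adjusted p = 0.0865), without LKO CT2 replicate 1 or 2 (0.064 and 0.06), and when F and LKO at CT2 were fitted alone (0.0774).

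At CT14, with the control livers themselves low, no difference was detected. WT at CT14 held 3.56, 1.41 and 4.56 TPM of Bmal1 and KO held 4.15, 4.44 and 4.44. These groups overlapped (log2 0.28 ± 0.35, 95% interval -0.45 to 1.003, adjusted p = 0.791), in a comparison where 5.31% of genes were called. F at CT14 spread widely, at 1.56, 8.49 and 6.14 TPM, while LKO stood at 4.03, 3.67 and 3.95. The log2 difference of -0.76 ± 0.35 did not pass (adjusted p = 0.436, with 1.73% of genes called), although it did without the low F replicate 1 (-1.17, adjusted p = 0.0245).

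Bmal1 fell from CT2 to CT14 in both control lines. The change was -2.45 ± 0.37 on the log2 scale in WT, 5.45-fold (adjusted p = 0.000431, 2.54% of genes called). In F it was -1.58 ± 0.35, 2.99-fold (adjusted p = 0.017, 2.66% called). In the knockouts the same comparison gave -0.06 ± 0.35 in KO (95% interval -0.78 to 0.66, adjusted p = 1) and -0.39 ± 0.35 in LKO (-1.11 to 0.34, adjusted p = 0.773), with 0% and 0.848% of genes called. For the count of 0 in KO, 753 genes had an unadjusted p under 0.05 and DESeq2 called 37. The time difference itself differed between KO and WT by 2.39 ± 0.50 (adjusted p = 0.0215, 0.799% called). Between LKO and F it differed by 1.19 ± 0.49, which did not pass (adjusted p = 0.675, 0.112% called). The fall in F lost its call when F was fitted alone (adjusted p = 0.298) and without F CT14 replicate 3 (0.0579). The KO interaction lost it on leaving out a single library in 5 of 24 cases, namely replicate 2 of WT at either time or any KO library at CT2 (adjusted p 0.0522 to 0.06).

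**Figure D1:**
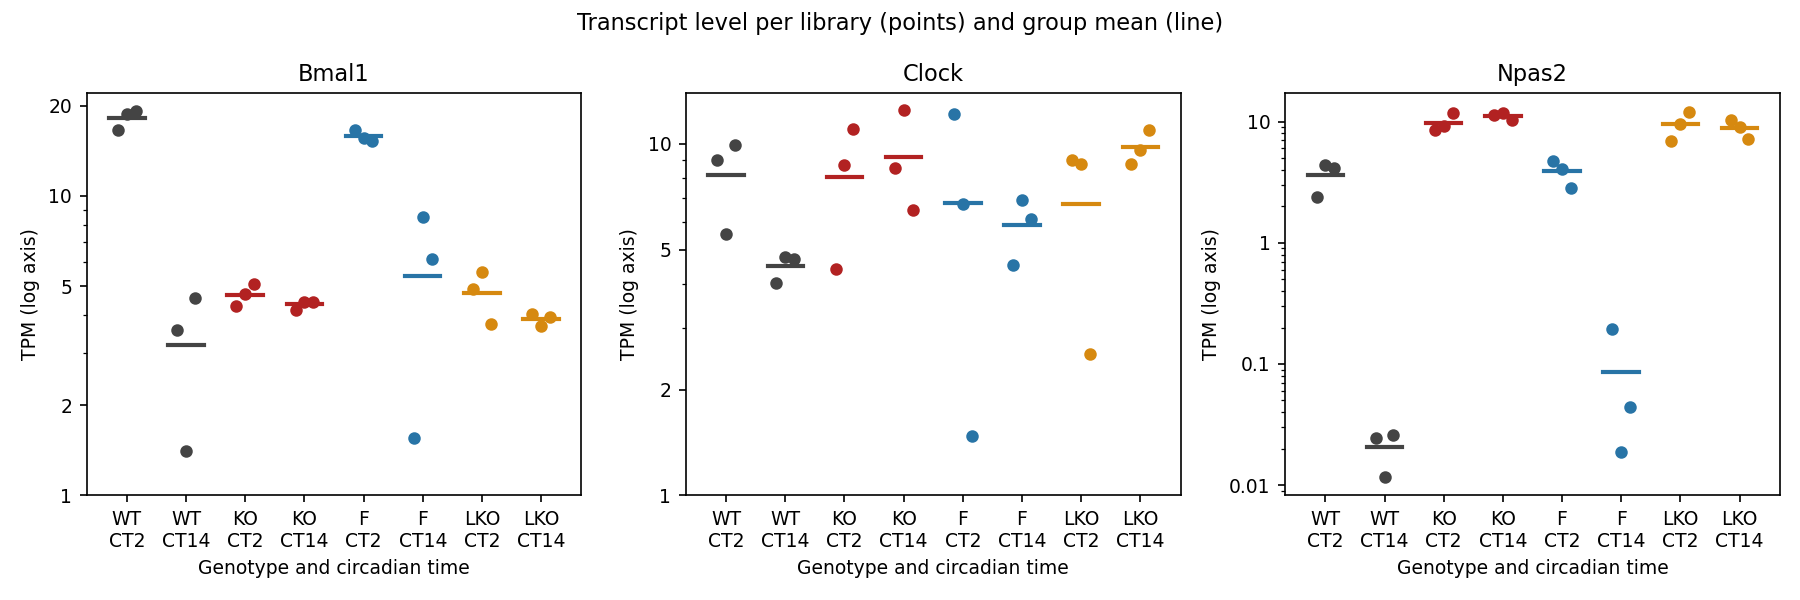
Transcript level of Bmal1, Clock and Npas2 in TPM on log axes, by genotype and circadian time; each point is 1 library and each line the mean of a group's 3 libraries. Bmal1 is high only in WT and F at CT2, Npas2 is below 0.2 TPM only in WT and F at CT14, and Clock has its lowest values in 1 F and 1 LKO library at CT2.

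Npas2, the alternative partner of BMAL1, moved far more than the others. WT livers at CT2 held 2.37, 4.38 and 4.11 TPM, and at CT14 only 0.0246, 0.0117 and 0.0259, which rest on 8, 4 and 8 estimated counts. The night level was thus close to nothing in every WT library. KO livers held 8.54, 9.15 and 11.7 TPM at CT2 and 11.2, 11.8 and 10.3 at CT14, above every WT library at either time. The KO difference at CT14 was 8.75 ± 0.41 on the log2 scale, 432-fold (95% interval 7.89 to 9.62, adjusted p = 4.66e-11). No other gene of the 20514 had a smaller p in that comparison.

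LKO repeated the pattern against its own control. F livers at CT2 had 4.72, 4.09 and 2.85 TPM of Npas2, and at CT14 0.194, 0.0186 and 0.0442, on 21, 6 and 13 counts. LKO livers had 6.95, 9.55 and 12.04 TPM at CT2 and 10.4, 8.94 and 7.24 at CT14. Every LKO library lay above every F library. At CT14 the difference was 7.30 ± 0.38 on the log2 scale, 157-fold (95% interval 6.50 to 8.09, adjusted p = 3.42e-10), again the smallest p of all genes. F CT14 replicate 1 has a high TPM for its 21 counts. Its Npas2 counts per TPM, relative to those of all genes, were 0.548, where the median over libraries was 1.64. In CPM, which carries no length correction, the 3 F libraries at CT14 stood at 0.184, 0.0573 and 0.119.

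At CT2 the increase was smaller and less firm. Npas2 was 2.48-fold higher in KO than in WT (log2 1.31 ± 0.28, adjusted p = 0.0353), and 2.201-fold higher in LKO than in F (1.14 ± 0.28), which did not pass (adjusted p = 0.0829). Libraries did not overlap in either comparison. The KO call was lost without any 1 of 7 libraries (adjusted p up to 0.217 without WT CT2 replicate 1) and when WT and KO at CT2 were fitted alone (0.0713). The LKO difference passed with DESeq2 (0.00542), with limma on log2(TPM + 1) (0.00849) and with counts divided by 4 (0.0309), and fell to 0.66 without F CT2 replicate 3 and LKO CT2 replicate 3. In the authors' deposited table, adjusted p was 3.63e-05 for KO against WT at CT2 and 0.123 for LKO against F.

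The day-night difference of Npas2 was present in the controls and not detected in the knockouts. From CT2 to CT14 it fell in WT (log2 -7.26 ± 0.40, 153-fold, adjusted p = 7.68e-10) and in F (log2 -6.31 ± 0.37, 79.2-fold, adjusted p = 2.96e-09). In KO the change was 0.18 ± 0.28 (95% interval -0.39 to 0.76, adjusted p = 1) and in LKO -0.15 ± 0.28 (-0.73 to 0.43, adjusted p = 0.935). The time effects differed by 7.44 ± 0.48 between KO and WT (adjusted p = 1.58e-08) and by 6.16 ± 0.45 between LKO and F (adjusted p = 1.88e-07). In all 4 of these called comparisons Npas2 had the smallest p of the genes tested. The 2 genotype comparisons at CT14 share their control samples with the time comparisons in WT and F, so these values are not independent of each other. Their sizes rest on the 4 to 21 Npas2 counts of each control library at CT14 and depend on the scale. With limma on log2(TPM + 1), which understates changes of low genes, the CT14 differences were 3.56 in KO and 3.17 in LKO, the time changes -2.15 in both WT and F, and the differences in time effect 2.32 and 2.08, and all of these passed.

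**Figure D2:**
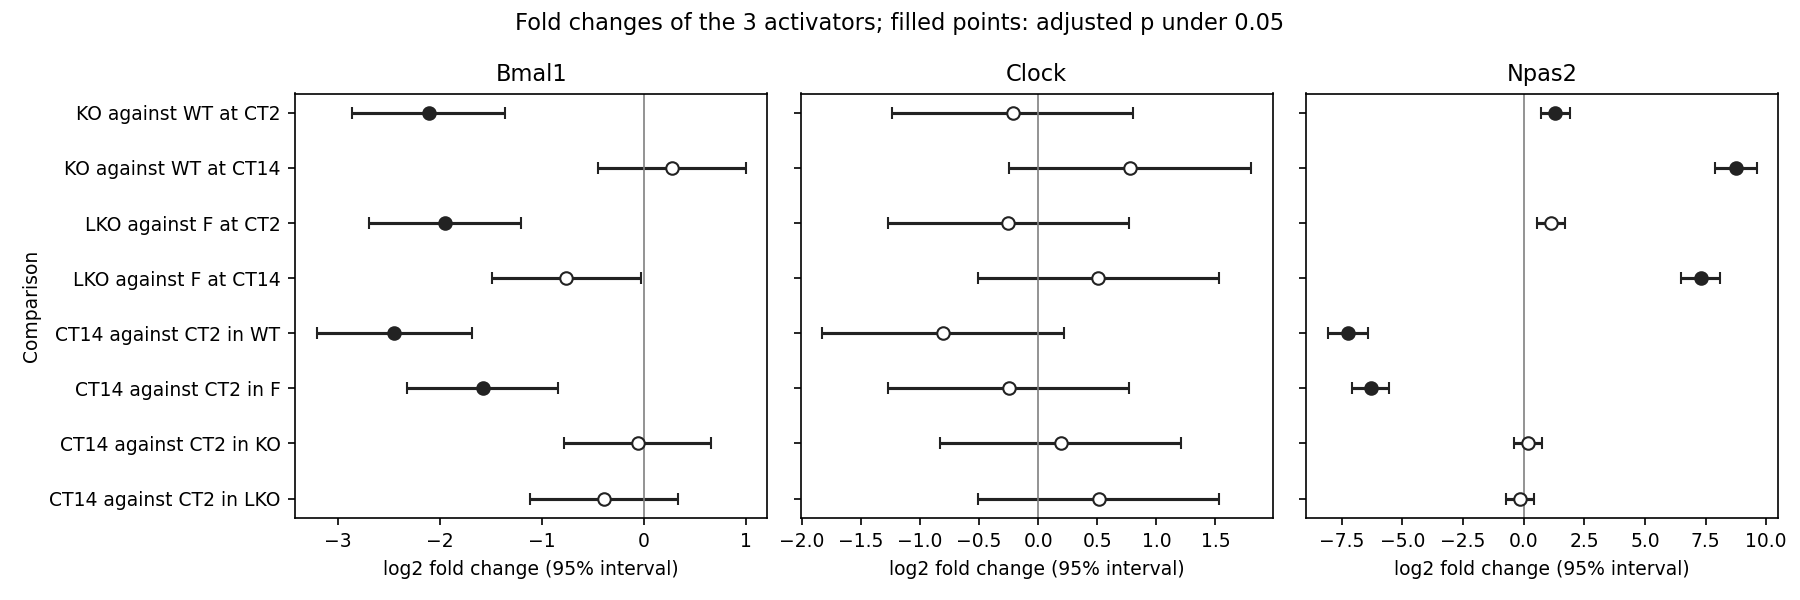
Log2 fold changes of Bmal1, Clock and Npas2 (points) with 95% intervals (bars) in 8 comparisons, with filled points for adjusted p under 0.05; the horizontal scale differs between panels. Npas2 spans 8.75 (KO against WT at CT14) to -7.26 (CT14 against CT2 in WT), while each interval of Clock includes 0.

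Clock, the main partner of BMAL1, was expressed in every library and passed in none of the 14 comparisons with edgeR. WT livers held 8.98, 5.55 and 9.90 TPM at CT2 and 4.02, 4.78 and 4.72 at CT14. KO livers held 4.40, 8.68 and 11.02 TPM at CT2 and 8.55, 12.5 and 6.49 at CT14. At CT14 every KO library was above every WT library, with a log2 fold change of 0.78 ± 0.49 (95% interval -0.24 to 1.80, adjusted p = 0.457). At CT2 the groups overlapped (-0.21 ± 0.49, adjusted p = 1).

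In the floxed line, Clock stood at 12.2, 6.75 and 1.47 TPM in F at CT2, a wide range set by replicate 3. F at CT14 had 4.53, 6.93 and 6.13 TPM. LKO had 9.03, 8.75 and 2.52 TPM at CT2 and 8.76, 9.58 and 10.99 at CT14. Thus LKO lay above F without overlap at CT14 (log2 0.51 ± 0.49, 95% interval -0.51 to 1.53, adjusted p = 0.896) and overlapped it at CT2 (-0.25 ± 0.49, adjusted p = 0.993). In the CT14 comparison, genes of small change such as Hdac3 (log2 0.13) and Sirt1 (-0.14) also separated without overlap, while others overlapped. The 2 lowest Clock values in the study, 792 and 1377 counts, are those of F CT2 replicate 3 and LKO CT2 replicate 3, the libraries with the lowest Ddx3y and the smallest mitochondrial shares. In these 2 libraries Npas2 stood at 2.85 and 12.04 TPM and Bmal1 at 15.2 and 3.73.

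Clock fell in no genotype by the test. The WT libraries at CT14 were all below those at CT2 (log2 -0.80 ± 0.49, adjusted p = 0.595), and the groups overlapped in F (-0.25 ± 0.49), KO (0.19 ± 0.49) and LKO (0.51 ± 0.49). Its spread within groups was 0.705 log2 units (SD), above that of 97.1% of the 1933 genes of similar level (within 0.5 log2 units of its mean), whose median was 0.238. The corresponding SD was 0.494 for Bmal1 and 0.406 for Npas2. Without F CT2 replicate 3 and LKO CT2 replicate 3, which are in neither group, KO against WT at CT14 kept its size and passed (0.79, adjusted p = 0.0472). Without KO CT2 replicate 1 as well, WT from CT2 to CT14 passed too (-0.81, adjusted p = 0.0336). The authors' deposited table, from their own DESeq2 comparisons, lists Clock at adjusted p = 0.00599 for KO against WT at CT14, 0.00651 for LKO against F at CT14 and 0.00485 for CT14 against CT2 in WT. The fold changes there, 0.78, 0.51 and -0.81, are of the same size as those given above.

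CLOCK and NPAS2 compete for the same partner, so their transcripts were also set side by side in TPM. Npas2 made up 20.8%, 44.1% and 29.3% of summed Clock and Npas2 TPM in WT at CT2, and 0.608%, 0.244% and 0.545% at CT14. In KO it made up 66.0%, 51.3% and 51.5% at CT2 and 56.8%, 48.6% and 61.3% at CT14. The mean share was 39.9 percentage points higher in KO than in WT over both times (p = 0.005, exact two-sided permutation test within time, the smallest p that 400 arrangements can give). In F the share was 27.9%, 37.7% and 65.9% at CT2 and 4.11%, 0.268% and 0.716% at CT14. LKO had 43.5%, 52.2% and 82.7% at CT2 and 54.2%, 48.3% and 39.7% at CT14, 30.7 percentage points more than F (exact permutation p = 0.02). That difference averages both times. At CT2 the means were 59.5% in LKO and 43.8% in F, with overlapping libraries, and at CT14 they were 47.4% and 1.70%. Both share tests use the Npas2 values compared above and are not separate evidence. The highest shares in F and LKO belong to the 2 libraries with low Clock. Without F CT2 replicate 3 the LKO difference was 36.2 points, and without LKO CT2 replicate 3 it was 24.8.

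Summed, the 2 partners had 11.3, 9.94 and 14.01 TPM in WT at CT2 and 4.04, 4.79 and 4.74 at CT14. KO had 12.9, 17.8 and 22.7 TPM at CT2 and 19.8, 24.3 and 16.8 at CT14. At CT14 the lowest KO sum was above the highest WT sum at either time. LKO at CT14 had 19.1, 18.5 and 18.2 TPM against 4.73, 6.95 and 6.17 in F. Bmal1 outweighed the partner sum in all WT libraries at CT2, in none at CT14, in 2 of 3 F libraries at CT2 and 1 of 3 at CT14, and in none of the 12 KO and LKO libraries. As Bmal1 is the gene targeted in KO and LKO, its rank there is description only. The F libraries counted at CT2 include replicate 3, where Clock was low at 1.47 TPM. Exact sequence shared between GENCODE transcripts of the 2 paralogues was at most 18 bases long.

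**Figure D3:**
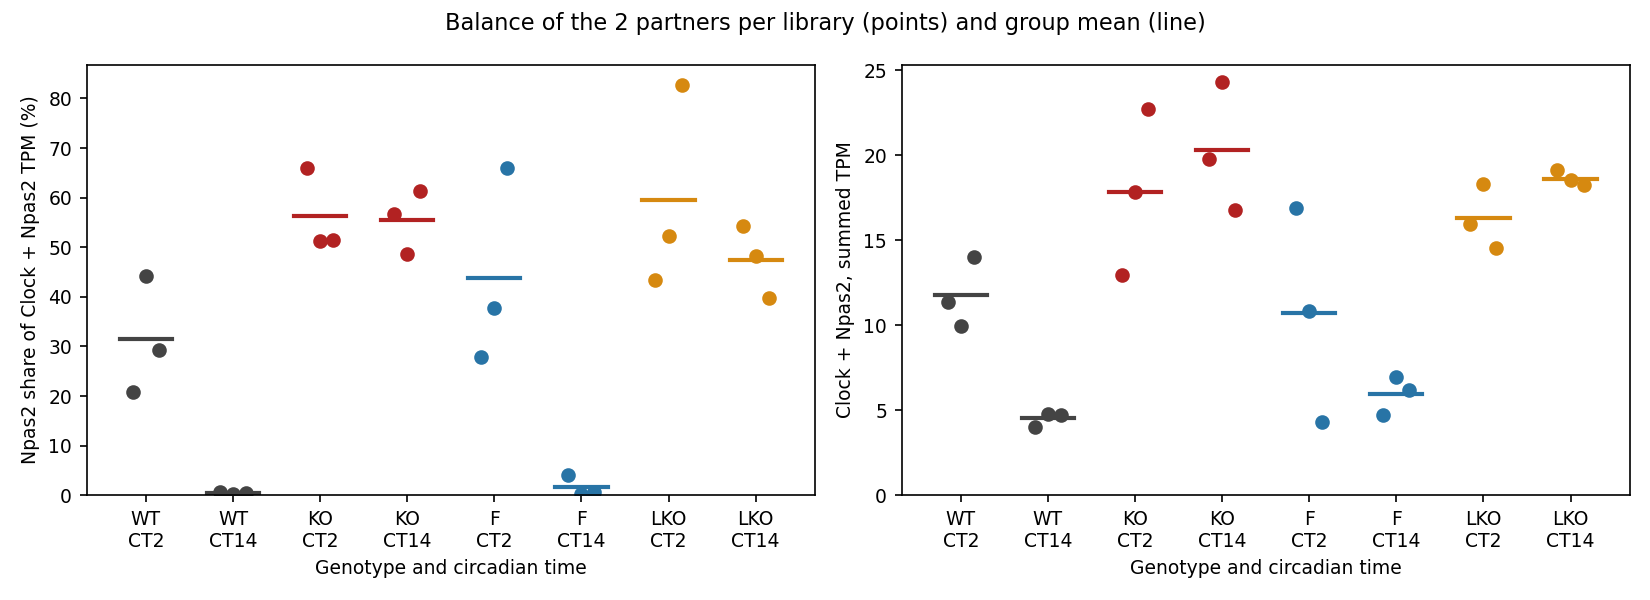
Left, Npas2 as a percentage of summed Clock and Npas2 TPM; right, that sum in TPM; points are libraries and lines are means of the 3 libraries of a group, by genotype and circadian time. The share falls to 4.11% or less in all WT and F libraries at CT14 and is at least 39.7% in all KO and LKO libraries.

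In order of mean TPM, Bmal1 ran WT CT2 (18.3 ± 1.4, SD, n = 3), F CT2 (15.8 ± 0.7), F CT14 (5.40 ± 3.52), LKO CT2 (4.74 ± 0.94), KO CT2 (4.69 ± 0.39), KO CT14 (4.34 ± 0.16), LKO CT14 (3.88 ± 0.19) and WT CT14 (3.17 ± 1.61). The first 2 groups were each separate from the next, and neighbours from the third to the sixth overlapped. KO CT14 and LKO CT14 were separate, and LKO CT14 and WT CT14 overlapped. Npas2 ran KO CT14 (11.1 ± 0.8), KO CT2 (9.79 ± 1.67), LKO CT2 (9.51 ± 2.54), LKO CT14 (8.85 ± 1.56), F CT2 (3.88 ± 0.95), WT CT2 (3.62 ± 1.10), F CT14 (0.0857 ± 0.0949) and WT CT14 (0.0207 ± 0.0078). Its neighbours were separate only between LKO CT14 and F CT2 and between WT CT2 and F CT14. Clock ran from 9.77 ± 1.13 in LKO CT14 to 4.51 ± 0.42 in WT CT14, and each group overlapped its neighbour.

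The global and the liver-specific effects were set against each other directly. No gene passed at CT2 (0% of genes, with 1130 at an unadjusted p under 0.05 and 61 called by DESeq2), and 0.0731% passed at CT14. At CT14 the Npas2 effect was larger in KO by 1.46 ± 0.51 on the log2 scale (95% interval 0.41 to 2.51), which did not pass (adjusted p = 0.382). At CT2 the Npas2 effects differed by 0.17 (-0.64 to 0.99). The Bmal1 effects differed by -0.16 (-1.18 to 0.86) at CT2 and by 1.04 (0.01 to 2.06, adjusted p = 0.606) at CT14. Between the control lines F and WT, 0.0877% of genes passed at CT2 (2140 at an unadjusted p under 0.05, 378 called by DESeq2) and 0.146% at CT14 (1962 and 491). Bmal1 and Npas2 were 0.71 ± 0.35 and 1.07 ± 0.42 higher in F than in WT at CT14, and neither passed (adjusted p = 0.551 and 0.361). The F and WT libraries also differed in their spermatid marker sums, and whether this bears on the comparisons between lines was not tested.

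The nuclear receptors that act on RORE sites were read next. Nr1d1 fell in KO at CT2 (-2.78 ± 0.55, adjusted p = 0.022) and CT14 (-3.44 ± 0.56, adjusted p = 0.000707), from 11.7 ± 8.1 and 20.7 ± 4.8 CPM in WT (SD, n = 3) to 1.70 ± 0.41 and 1.90 ± 0.49. Nr1d2 fell there too, at CT2 (-1.83 ± 0.31, adjusted p = 0.00576) and at CT14 (-3.78 ± 0.34, adjusted p = 6.09e-07). In LKO, Nr1d2 fell at CT14 from 37.5 ± 5.4 to 8.46 ± 0.90 CPM (-2.15 ± 0.31, adjusted p = 0.000424). Its CT2 value (-0.93 ± 0.30) and those of Nr1d1 (-1.87 ± 0.53 at CT2, -1.52 ± 0.52 at CT14) did not pass. In these comparisons no LKO library overlapped with F, which is a description and adds nothing to the test.

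Rora, which encodes the activating receptor ROR alpha, did not pass in any comparison, and its values in F at CT2 ran from 7.35 to 52.5 CPM. Of the 3 receptors described here, 2 fell in KO at each time and 1 in LKO at CT14, where 0.517%, 5.31% and 1.73% of all genes passed. In LKO at CT2, 0 passed with edgeR, where 2 had an unadjusted p under 0.05 and DESeq2 called 1. The medians of the 3 were -1.83 and -3.44 in KO at CT2 and CT14, and -0.93 and -1.52 in LKO, where the medians of all genes rounded to 0, 0.01, 0.01 and -0.01.

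The known E-box targets of the activators mostly stood above control at CT2 and below it at CT14. Of 15 genes, all tested, 8 rose and 2 fell in KO at CT2, and 1 rose and 10 fell at CT14. In LKO 6 rose and 0 fell at CT2, and 1 rose and 3 fell at CT14. Of all genes tested, 0.517% and 5.31% passed in KO and 0.400% and 1.73% in LKO. This list and the others were chosen with earlier results of these data known, so such counts are descriptions. The list's medians were 1.49, -1.46, 1.16 and -0.74. Tef, a PAR bZIP factor, was at 21.8 ± 2.2 CPM in WT at CT2 and 160.7 ± 9.5 at CT14, and at 79.0 ± 5.3 and 67.7 ± 12.5 in KO. It rose in KO at CT2 (1.86 ± 0.18, adjusted p = 1.51e-05) and fell at CT14 (-1.25 ± 0.18, adjusted p = 0.000152). Per3, of the Per family of repressors, did the same (1.94 ± 0.33 and -2.71 ± 0.33). So did Usp2, a deubiquitinase, with 2.21 ± 0.35 and -3.30 ± 0.36. The list holds Nr1d1, Nr1d2 and Cry1, which the other lists name as well.

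From CT2 to CT14, 12 of the 15 E-box targets rose in WT and 13 in F, and none fell, where 2.54% and 2.66% of all genes passed. In KO, where no gene of all those tested passed, the list had a median of 0.09 and 0 genes with an unadjusted p under 0.05 or called by DESeq2. In LKO 3 rose (Usp2, Per2 and Hlf; 0.848% of all genes passed), with a median of 0.85 against 2.83 in WT and 3.07 in F. The time effect was lower in KO than in WT for 9 of them and lower in LKO than in F for 4, against 0.799% and 0.112% of all genes called in either direction. Usp2 was the 1 listed gene whose KO and LKO effects differed at CT14 (-2.56 ± 0.48, adjusted p = 0.0469). It stood at 5.95 ± 1.35 CPM in KO against 58.8 ± 7.1 in WT, and at 18.5 ± 4.0 in LKO against 31.0 ± 12.7 in F. No gene passed in this comparison without WT replicate 1 or 2, F replicate 2 or 3, or LKO replicate 2 or 3 at CT14, so the Usp2 call was lost in each of these 6 runs.

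**Figure D4:**
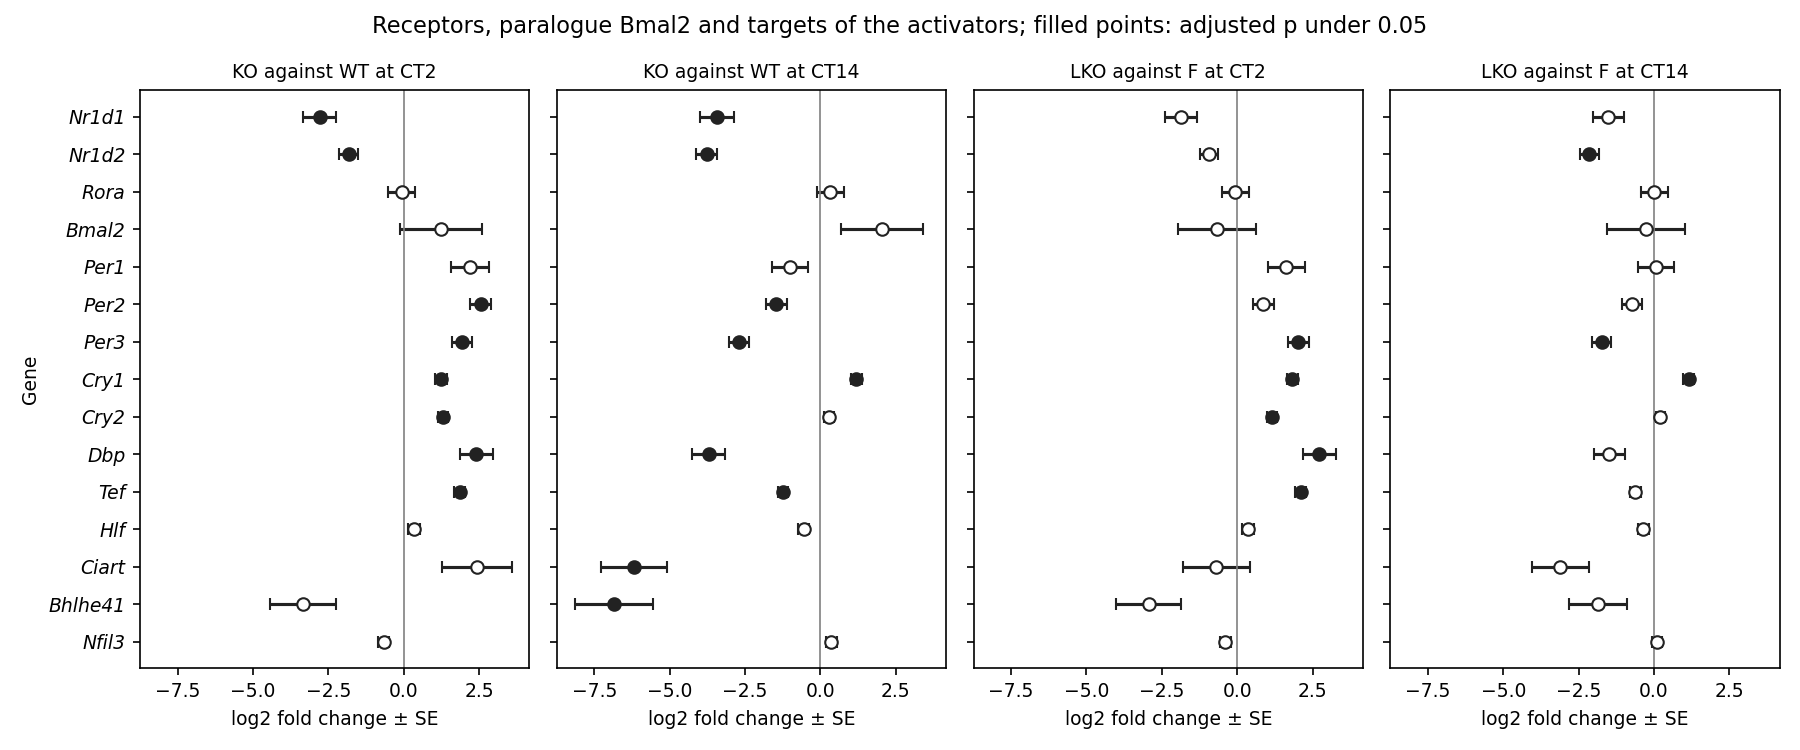
Log2 fold changes (points) ± SE (bars) of RORE receptors, the paralogue Bmal2 and clock targets in KO against WT and LKO against F at CT2 and CT14; filled points have adjusted p under 0.05. Most E-box targets lie right of 0 at CT2 and left of 0 at CT14, while Cry1 lies to the right in all 4 panels.

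Of 5 RORE targets other than the 3 activators, Cry1 rose in KO at CT2, Cry1 and Elovl3 at CT14, and the same genes in LKO at the same times, and none fell, against 0.517%, 5.31%, 0.400% and 1.73% of all genes called. Cry1, a repressor with both E-box and RORE control, went from 23.1 ± 2.3 to 54.6 ± 5.8 CPM at CT2 in KO (1.24 ± 0.19, adjusted p = 0.00152). Elovl3, a fatty acid elongase, had 24.7 ± 7.9 CPM in WT and 407 ± 233 in KO at CT14 (4.04 ± 0.74, adjusted p = 0.00229), and 30.4 ± 7.8 in F and 1021 ± 167 in LKO (5.07 ± 0.77, adjusted p = 0.00105). Elovl3 also fell from CT2 to CT14 in WT (-3.51 ± 0.72) and F (-4.06 ± 0.74), as Npas2 did. Nfil3, a repressor of D-box genes, fell in the same comparisons (-0.70 ± 0.18 and -1.27 ± 0.18) and in LKO (-0.77 ± 0.18), and did not pass in KO against WT or LKO against F at either time.

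Of 21 genes for proteins that bind or modify the dimer, 0 passed in KO at CT2, LKO at CT2 or LKO at CT14 with edgeR or DESeq2 (1, 0 and 2 had an unadjusted p under 0.05), and 2 passed in KO at CT14. These counts are near the shares of all genes called (0.517%, 0.400% and 1.73%, and 5.31% in KO at CT14). There Prkca, a protein kinase, rose (1.19 ± 0.27, adjusted p = 0.0107), and Cipc, an inhibitor of CLOCK, fell (-0.98 ± 0.17, adjusted p = 0.00127). Cipc also rose from CT2 to CT14 in WT (0.73 ± 0.17) and F (0.75 ± 0.17). Other bHLH-PAS genes, the family of the 3 activators, numbered 16, of which 12 were tested, and none passed in any of the 14 comparisons with edgeR or DESeq2 (0 to 3 had an unadjusted p under 0.05). Bmal2, the paralogue of Bmal1, had group means between 0.0764 and 0.428 CPM and SEs above 1.2 log2 units, so a change was not detectable at this depth.

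The genes most like each activator over the 24 libraries were found by Pearson r of log2 CPM among 12744 genes with a mean of at least 1 CPM. These points share their libraries and groups, and the values are descriptions. Npas2 was most like Gm11454 (0.96), Mad2l2 (0.96), Leprotl1 (0.95), Smagp (0.95) and Ubxn1 (0.95). Gm11454 had 0.750 ± 0.122 CPM in WT at CT2, 0.0137 ± 0.0237 at CT14, and 6.47 ± 1.59 and 5.75 ± 0.40 in KO. Most opposite to Npas2 were Gys2, the liver glycogen synthase (-0.95), Homer2 (-0.94) and Foxo3 (-0.93). Gys2 went from 77.9 ± 5.6 to 293.9 ± 35.9 CPM between CT2 and CT14 in WT and stood at 56.0 ± 5.0 and 52.4 ± 10.4 in KO.

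Bmal1 was most like Ank2 (0.80), Wrnip1 (0.76), Ormdl2 (0.75), ENSMUSG00000121084 (0.74) and Snx1 (0.74). Its most opposite genes were its own targets Tef (-0.87), Cry2 (-0.84) and Per1 (-0.83). Clock was most like Evi5, Brwd3, Zfp266, Tlcd4 and Cdc42bpa (each 0.92) and most opposite to Pfn1 (-0.89), Slc25a39 (-0.86) and Efemp2 (-0.84). Without F CT2 replicate 3 and LKO CT2 replicate 3, the 5 genes most like Clock had r between 0.73 and 0.77, whereas those of Npas2 stayed between 0.95 and 0.97. Among the 3 activators, over all 24 libraries, r was 0.05 for Bmal1 and Clock, 0.18 for Bmal1 and Npas2 and 0.25 for Clock and Npas2. These values mix the genotypes. In WT and F, Bmal1 and Npas2 both fell from CT2 to CT14, while in KO and LKO the targeted Bmal1 was low and Npas2 at its highest. Likeness within controls alone was not computed.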

How the data were processed

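The authors deposited estimated counts per gene, not normalized, and TPM values for the same 24 libraries. They also deposited log2 fold changes and p-values of their own DESeq2 comparisons, for which no version or formula is given in the sources used here. The submitters' processing notes name StringTie 1.3.1, HISAT2 2.2.1, fastp 0.23.2 and build GRCm39. RefSeq and GENCODE sequences on GRCm38 served for sequences only. Genes at counts that are multiples of 4 were 1.36 to 1.53 times as frequent as at neighbouring values, so counts divided by 4 were tried. Counts were rounded and tested with edgeR 4.0.16 in R 4.3.3, keeping genes by filterByExpr (minimum count 10, total 15). The quasi-likelihood model used TMM scaling, robust estimation and 8 group means, and contrasts were adjusted by Benjamini-Hochberg at 0.05 over 20514 genes. As a check, the test was also run on simulated counts with 200 changed genes, of which the numbers recovered are not given here. The simulation gave all genes the same dispersion and held no outlying libraries. It therefore does not show the power for genes as variable as Clock and Bmal1. Alternatives used DESeq2 1.42.0, limma 3.58.1 on log2(TPM + 1) and log2(TPM + 0.1), other filters and fewer libraries.

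The activators and gene lists were chosen with earlier results of these data known, although the rule for the activators used gene symbols only. The list counts set beside the shares of all genes are therefore descriptions and not independent evidence. Named were the 3 activators, Nr1d1, Nr1d2, Rora and Bmal2, per list and comparison at most 6 called genes of smallest adjusted p, and the 5 most and 3 least alike genes. CPM values used a prior count of 2 only for likeness. Marker lists of 11 cell types were summed. The main model and the permutation test of the share have no pairing term. In F and LKO at CT2 the deviations of same-numbered libraries correlated at 0.18, 0.14 and 0.31, the last for the 2 libraries with the lowest Ddx3y. A replicate block by number was therefore fitted only as an alternative. No 2 libraries correlated above 0.973 across genes. 1 further gene is not reported here and was left out of the list counts.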

Additional observations from a re-analysis of the deposited data

Results flagged for a closer look

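The interaction tests of 3 results stood out, in each of which the difference between CT14 and CT2 was unlike in knockout and control by the edgeR test of that difference. For Npas2 the time effect differed by 7.44 on the log2 scale between KO and WT and by 6.16 between LKO and F. For Bmal1 it differed by 2.39 between KO and WT. Bmal1 is the targeted gene, with means of 4.69 and 4.34 TPM in KO at CT2 and CT14, so this interaction cannot be told apart from the deletion itself. Groups of 3 libraries were not tested for outlying samples.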

How the results depend on the processing

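Each result was recomputed under 12 alternatives and with each of the 24 libraries left out. Where a value changed, the cause was not tested. All calls of Npas2 at CT14, for time in WT and F and for both time interactions held in every run, as did those of Bmal1 for time in WT and of the Npas2 share. On log2(TPM + 1) these Npas2 differences, the share apart, were smaller by over 1.5 times. The counts of called genes each moved by over 1.5 times, or away from 0, in at least 1 run. Over all runs they ranged from 50 to 365 for KO against WT at CT2 (106 in the report), 632 to 1915 at CT14 (1089), 1 to 392 for LKO against F at CT2 (82) and 171 to 896 at CT14 (354). For CT14 against CT2 they ranged from 270 to 1100 in WT (521), 0 to 37 in KO (0), 33 to 1172 in F (545) and 10 to 643 in LKO (174). For the time interactions they were 85 to 389 (164, KO) and 11 to 131 (23, LKO), for KO against LKO effects 0 to 61 (0, CT2) and 0 to 208 (15, CT14), and for F against WT 1 to 378 (18, CT2) and 3 to 491 (30, CT14). With each comparison's groups fitted alone, calls were lost for Npas2 in KO at CT2 (1.32), Bmal1 in LKO at CT2 (-1.95) and Bmal1 over time in F (-1.58), and Npas2 in F against WT at CT14 fell below the filter. The share test was run only on counts (29.01 and 22.5 points), with leave-one-out and in pairs.

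With the replicate block, Npas2 in KO against WT at CT2 was 1.304 (adjusted p = 0.0576, call lost), and no other call of the activators changed. The replicate block moved called genes from 174 to 81 for time in LKO, from 15 to 9 for KO against LKO effects at CT14, and from 18 to 8 and 30 to 18 for F against WT. For LKO against F at CT2, where same-numbered libraries correlated between 0.14 and 0.31, it gave 68 calls for 82. Other same-numbered libraries correlated between -0.15 and 0.19, and in no pair of groups did all 6 samples correlate best with their own number.

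Npas2 in LKO against F at CT2 passed with DESeq2 (1.14), limma on log2(TPM + 1) (1.10), log2(TPM + 0.1) (1.26) and counts divided by 4 (1.14). On log2(TPM + 1) and log2(TPM + 0.1), Clock changed sign in LKO at CT2 (0.15, 0.22), over time in F (0.10, 0.20) and for KO against LKO effects at CT2 (-0.21, -0.30), and on the latter scale the Bmal1 time interaction of KO lost its call (2.53).

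Without the 3 libraries of low Ddx3y, Bmal1 lost its call in KO at CT2 (-2.11), LKO at CT2 (-1.91) and the KO time interaction (2.40), while Clock passed in KO at CT14 (0.79) and over time in WT (-0.81). Clock over time in KO (-0.019), Npas2 over time in LKO (0.16) and Clock in F against WT at CT2 (0.21) changed sign. Without F CT2 replicate 3 and LKO CT2 replicate 3 only, a choice made after seeing the data, the values were -1.91 for Bmal1 in LKO at CT2 (call lost), 0.79 for Clock in KO at CT14 (passed), 0.16 for Npas2 over time in LKO and 0.21 for Clock in F against WT. Without replicate 3 of F at both times, Bmal1 over time in F lost its call (-1.68) and Clock in F against WT at CT2 was 0.21. KO CT2 replicate 2 and KO CT14 replicate 1 were the KO libraries with spermatid marker sums of 4.24 and 4.83 CPM. Without them, Npas2 in KO at CT2 (1.39) and the Bmal1 time interaction of KO (2.36) lost their calls. The genes called for F against WT then went from 18 to 156 at CT2 and from 30 to 210 at CT14.

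Leaving out single libraries gave ranges of 1.11 to 1.49 for Npas2 in KO at CT2, -0.044 to 0.59 for Bmal1 in KO at CT14, -2.00 to -1.88 for Bmal1 in LKO at CT2, -0.72 to 0.43 for Clock in LKO at CT2 and -1.17 to -0.28 for Bmal1 in LKO at CT14. Over time they were -0.0094 to 0.43 for Clock in KO, -2.06 to -1.17 for Bmal1 in F, -0.73 to 0.42 for Clock in F and -0.34 to 0.16 for Npas2 in LKO. They were 2.07 to 2.70 for the Bmal1 time interaction of KO, -0.65 to 0.50 (Clock) and -0.034 to 0.50 (Npas2) for KO against LKO effects at CT2, and -0.93 to 0.21 (Clock) and -0.094 to 0.29 (Npas2) for F against WT at CT2. Where this left 1 group with 2 libraries, the spread was pooled over all groups.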
